A study of Rattus norvegicus with 16 samples.

Results

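The genes described here encode steroid receptors, enzymes that convert steroids, and coregulators that work with those receptors, measured in rat satellite cells under a nonsteroidal androgen receptor agonist. They were chosen by name, with earlier results of these data known. In all, 10 genes were listed, and every probe set annotated with exactly 1 of their symbols was taken. The annotation used here gave 14 such probe sets for 9 of the 10 genes, of 31042 probe sets on the array other than controls and 14217 genes with a probe set of their own symbol. Srd5a1, which encodes a steroid 5-alpha-reductase that makes dihydrotestosterone, had no probe set of its own symbol in that annotation. Of the 14 probe sets, 11 for 7 genes averaged 300 or more over the arrays used and were tested, and 3, of Esr1, Ncoa2 and Ncoa1, were dimmer.

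The cells were labelled as satellite cells, the muscle stem cells, grown from the levator ani of the rat and used at passage 5. They were treated with 10 nM of the agonist, called NARA in the labels, or with vehicle (0.2% DMSO), and all groups were kept in 10% charcoal-stripped serum, a serum depleted of steroid hormones. After the authors had left out 3 arrays, there were 4 arrays of NARA at 48 h, 3 of vehicle at 48 h, 2 of NARA at 4 h and 4 of vehicle at 4 h. The titles call the replicates biological, but the sources used here name no separate cultures or animals behind them, so the p-values speak of the scatter among these arrays, and that scatter may be technical. RNA extraction is given as Trizol in the labels and as a column kit in the design text.

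Steroid receptors are transcription factors that a hormone switches on. The glucocorticoid receptor, the mineralocorticoid receptor and the receptor that NARA targets are closely related and bind much the same DNA element. How much active glucocorticoid reaches them is set inside the cell by a pair of opposed enzymes: Hsd11b1 mainly regenerates active corticosterone, and Hsd11b2 inactivates it, which in kidney protects the mineralocorticoid receptor. Bound receptors recruit coactivators such as Ncoa1 and Ncoa2 or corepressors such as Ncor1.

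Signals are MAS5 values on a linear scale, where every array was scaled to a trimmed mean of 1500. The 13 arrays correlated at 0.930 to 0.956 with each other across probe sets, no pair held identical values, and their median signals lay between 539 and 613. The left-out NARA 4 h replicates 1 and 4 stood apart, at 0.645 to 0.673 with the 13, and the summed signal of 12 liver markers was 1372360 and 1646930 in them, against 3879 to 5895 on the 13 arrays. Left-out vehicle 48 h replicate 1 correlated at 0.922 to 0.933. Of 16 muscle markers 12 were on the array. A mean of 300 was reached by 6 (among them Cdh15, at 1275, Myog, at 1117, and Des, at 774), while Myod1, at 83.9, did not reach it. All 12 fibroblast markers did, with a summed signal of 489052 to 632805 on the 13 arrays. At 48 h 0 of them rose and 2 fell with NARA, where 1.71% of all genes rose and 1.5% fell. The 2 were Lum (log2 change -1.06) and, near the threshold, Pdgfra (-0.75, adjusted p = 0.0454 in limma). The rest went both ways, with Col3a1 at 0.39 and Col1a2 at 0.23, but Postn at -0.59 and Dcn at -0.56. At 48 h the fibroblast sums overlapped, at 515269 to 632805 in NARA and 489052 to 597816 in vehicle. The 12 muscle markers had a summed signal of 4920 to 7142 on the 13 arrays. This was near that of the liver markers there and far below that of the fibroblast markers. Pax7 and Myf5, which define satellite cells, had no probe set of their own symbol, so the labelled cell type could be checked only in part. The muscle markers measured did not by themselves bear it out, and sums over different probe sets cannot decide what the cells are. The name satellite cells rests on the labels.

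At 48 h, of 7 member genes tested by their brightest probe set 1 rose and 2 fell with NARA, beside 3.21% of all 11286 genes that passed in either direction. Since the members were chosen with earlier results of these data known, this count is a description and no test of the set. Hsd11b2 rose 3.42-fold, the glucocorticoid receptor gene Nr3c1 fell 1.45-fold, and Tgfb1i1, a focal adhesion protein and receptor coactivator, fell 1.44-fold. In all, 4 of 11 tested member probe sets passed the threshold in limma, 1 higher and 3 lower, beside 2.8% of all 20904 probe sets tested (1.36% higher and 1.44% lower). This count, and the median over the 11 given next, include a second, dimmer Nr3c1 probe set. It entered the test only through the groups where it was high. Nothing is read from that probe set or from the count that holds it, and the count by genes does not use it. The median log2 change was -0.11 over the 11 and -0.0037 over all probe sets. A call here means an adjusted p under 0.05 over all probe sets tested. At 4 h, 0 of the 11 passed, beside 0% of all probe sets.

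**Figure D1:**
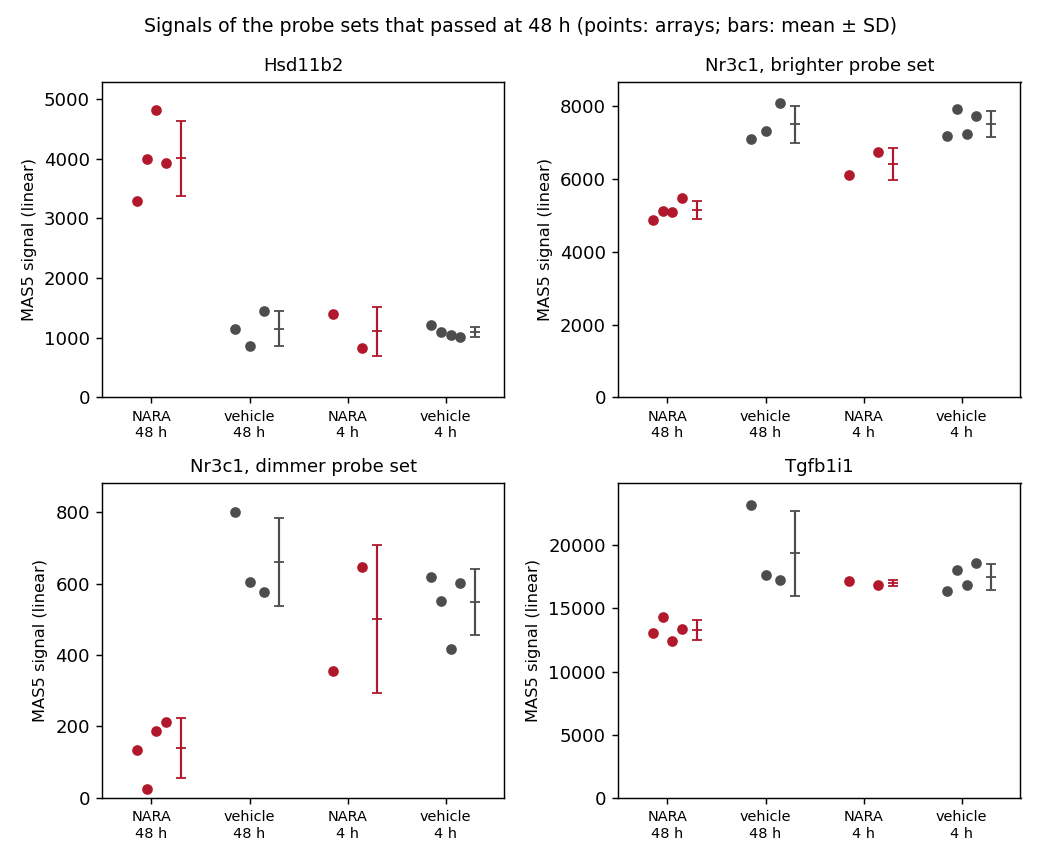
MAS5 signal (vertical axis, linear, from 0) of the 4 member probe sets that passed at 48 h, for NARA at 48 h (n = 4), vehicle at 48 h (n = 3), NARA at 4 h (n = 2) and vehicle at 4 h (n = 4). Points are arrays and bars are mean ± SD. The NARA 48 h arrays of Hsd11b2 lie between 3289.6 and 4825, above every other array, and those of both Nr3c1 probe sets and of Tgfb1i1 lie below every other array. The dimmer Nr3c1 probe set entered the test only through the groups where it was high.

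Nr3c1 encodes the glucocorticoid receptor. Its brighter probe set had signals of 4866, 5123, 5097 and 5476 in NARA at 48 h, against 7101, 7325 and 8083 in vehicle at 48 h. At 4 h the signals were 6108 and 6729.8 in NARA, against 7182, 7914, 7235 and 7735 in vehicle. The NARA arrays lay below all vehicle arrays at both times, and the 48 h NARA arrays lay below those of 4 h.

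The mean was 5141 ± 252 (SD, n = 4) in NARA, against 7503 ± 514 (SD, n = 3) in vehicle at 48 h, for a log2 change of -0.54 (SE 0.09, 95% interval -0.75 to -0.33, adjusted p = 0.00958 in limma), or 1.45-fold lower. At 4 h the log2 change of this probe set was -0.23 (SE 0.11, adjusted p = 1.000), and groups that do not overlap were found for 14.3% of all probe sets at 4 h and 14.7% at 48 h. The call at 48 h was kept without each of the 13 arrays in turn. It was lost when the fit held the 48 h arrays alone (adjusted p = 0.0939), with all 16 arrays (adjusted p = 0.275) and with the replicate number as a block (adjusted p = 0.0528).

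The dimmer Nr3c1 probe set gave 134, 25.3, 186 and 213 in NARA at 48 h, against 802, 604 and 576 in vehicle at 48 h. At 4 h it gave 355 and 648 in NARA, against 619, 552, 416 and 603 in vehicle. The 4 NARA arrays at 48 h were all under 300, so this probe set passed the signal minimum only through the groups where it was high, and the groups overlapped at 4 h. The fit's log2 change at 48 h, -2.04 (adjusted p = 0.0132 in limma), is therefore a description and no support for the change of the gene. It depended on the offset added before the logarithm, at -2.58 with an offset of 1 and -1.37 with 200. The adjusted p missed the threshold without vehicle 48 h replicate 2 (log2 change -1.90, adjusted p = 0.0652), with the 48 h arrays alone (adjusted p = 0.0876) and with all 16 arrays (adjusted p = 0.353). Which transcripts each probe set detects is not given in the sources used here.

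The RefSeq promoter windows of Nr3c1 are shown because this gene fell at 48 h. They are printed each from 250 bases before to 50 after a transcription start (GRCr8, minus strand, chr18:31614170-31614469 and chr18:31613390-31613689), in lower case with the GC box GGGCGG in capitals on either strand.
Nr3c1 first start: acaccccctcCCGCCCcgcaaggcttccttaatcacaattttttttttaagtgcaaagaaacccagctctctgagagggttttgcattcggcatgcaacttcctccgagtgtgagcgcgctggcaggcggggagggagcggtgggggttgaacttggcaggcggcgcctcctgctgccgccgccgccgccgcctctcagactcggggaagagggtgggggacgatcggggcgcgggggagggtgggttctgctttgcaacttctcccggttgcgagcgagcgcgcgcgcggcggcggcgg
Nr3c1 second start: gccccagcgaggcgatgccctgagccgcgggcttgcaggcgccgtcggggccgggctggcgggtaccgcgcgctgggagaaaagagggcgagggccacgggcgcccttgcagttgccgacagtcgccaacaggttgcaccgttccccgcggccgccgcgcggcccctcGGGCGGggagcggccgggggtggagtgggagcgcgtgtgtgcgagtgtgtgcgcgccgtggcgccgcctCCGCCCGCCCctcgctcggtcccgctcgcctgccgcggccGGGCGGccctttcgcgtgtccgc
The first window holds 1 GC box and the second 4, of which some overlap, and this motif is found in 33.1% of 33469 RefSeq promoter windows of the rat. The GC content is 66.0% and 79.0%, against a median of 51.7%. The element to which this receptor family binds, AGAACA and TGTTCT with NNN between them, is in 0.0149% of all windows and in neither of these, and its half-site AGAACA, on either strand and as part of that element, is in 20.7% of all windows and in neither of these. The letters TATAAA, found in 14.2% of all windows on either strand, are also in neither.

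Nr3c2, the mineralocorticoid receptor gene, was dim. Its signals were 318, 318, 411 and 347 in NARA at 48 h, against 362, 456 and 443 in vehicle at 48 h, and 477 and 462 in NARA at 4 h, against 687, 421, 589 and 599 in vehicle at 4 h. The groups overlapped at both times. The log2 change was -0.24 at 48 h (95% interval -0.58 to 0.10, adjusted p = 0.497 in limma) and -0.25 at 4 h (95% interval -0.63 to 0.14). Esr1, the gene of estrogen receptor alpha, had signals of 80.7 to 99.0 in NARA and 61.0 to 266 in vehicle at 48 h, and 49.7 to 119 in NARA and 49.4 to 301 in vehicle at 4 h. It averaged 115 over the 13 arrays, below the minimum, and was not tested.

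Hsd11b2 encodes the enzyme that inactivates glucocorticoids. Its signals were 3289.6, 3996, 4825 and 3928 in NARA at 48 h, against 1155, 853 and 1453 in vehicle at 48 h. At 4 h they were 1401 and 822 in NARA, against 1206, 1103, 1053 and 1018 in vehicle. The lowest NARA array at 48 h was above the highest of the other 9 arrays, and at 4 h 1 NARA array lay above and the other below all vehicle arrays.

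The mean of Hsd11b2 was 4009.8 ± 629.7 (SD, n = 4) in NARA, against 1154 ± 299.7 (SD, n = 3) in vehicle at 48 h, for a log2 change of 1.77 (SE 0.21, adjusted p = 0.000752 in limma). As a fold this is 3.42, with a 95% interval of 2.49 to 4.68, and the probe set ranked 74 of 20904 by p. The call held in each of 25 alternative settings, with log2 changes of 1.58 to 1.95. At 4 h the log2 change was -0.02 (95% interval -0.54 to 0.49). The gene has 1 probe set, so no other probe set of it could be compared. Of 6 markers of kidney epithelium, where this enzyme is abundant, 1 reached the signal minimum and 0 passed at 48 h, and their summed signal was 1506 to 2073 in NARA and 1422 to 2102 in vehicle at 48 h.

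Hsd11b1, the enzyme of the opposite direction, gave 5878, 5832, 5370.1 and 6701 in NARA at 48 h, against 5497, 6338 and 6472 in vehicle at 48 h. At 4 h it gave 8704 and 6793 in NARA, against 6867, 7748, 7157 and 7619.6 in vehicle. NARA and vehicle overlapped at both times, and in vehicle every 48 h array lay below every 4 h array. The log2 change with NARA was -0.04 at 48 h (95% interval -0.30 to 0.22, adjusted p = 0.915 in limma) and 0.07 at 4 h (95% interval -0.23 to 0.36). These intervals exclude at both times a change of the size of Hsd11b2 at 48 h, and the difference between the 2 genes was not tested.

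Tgfb1i1 (also known as Hic-5) encodes a LIM protein of focal adhesions that can act as a coactivator of steroid receptors in the nucleus. Its signals were 13086, 14325, 12397 and 13390.1 in NARA at 48 h, against 23219, 17608 and 17252 in vehicle at 48 h. At 4 h they were 17179 and 16829.7 in NARA, against 16363, 18056, 16822 and 18570.4 in vehicle. All 4 NARA arrays at 48 h lay below the other 9 arrays, while NARA and vehicle overlapped at 4 h.

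The mean of Tgfb1i1 was 13299.5 ± 800.2 (SD, n = 4) in NARA, against 19359.9 ± 3347 (SD, n = 3) in vehicle at 48 h. The log2 change was -0.53 (SE 0.12, 95% interval -0.79 to -0.27, adjusted p = 0.0369 in limma) at 48 h and -0.04 (95% interval -0.33 to 0.26) at 4 h. The call was near the threshold and held in 8 of 25 alternative settings, with adjusted p between 0.00208 and 1.000. Leaving out single arrays kept it in 2 of 13 cases, and without vehicle 48 h replicate 2 the log2 change was -0.39 (adjusted p = 0.121). Tgfb1i1 is abundant in smooth muscle. The summed signal of 6 smooth muscle markers was 10877 to 15316 in NARA and 15403 to 17909 in vehicle at 48 h, with 0 of 6 passing singly. Their log2 changes went both ways: Tagln -0.62, Myh11 -0.47 and Acta2 -0.33, but Cnn1 0.53, Smtn 0.22 and Lmod1 0.14. Left-out vehicle 48 h replicate 1 had a sum of 13746, within the NARA range. The part of these markers in the result was not tested. In such bulk samples fewer cells of a type and less RNA per cell cannot be told apart.

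For comparison with the windows of Nr3c1, the RefSeq promoter window of Tgfb1i1 (GRCr8, plus strand, chr1:192258856-192259155) is printed with its GC boxes in capitals.
Tgfb1i1 start: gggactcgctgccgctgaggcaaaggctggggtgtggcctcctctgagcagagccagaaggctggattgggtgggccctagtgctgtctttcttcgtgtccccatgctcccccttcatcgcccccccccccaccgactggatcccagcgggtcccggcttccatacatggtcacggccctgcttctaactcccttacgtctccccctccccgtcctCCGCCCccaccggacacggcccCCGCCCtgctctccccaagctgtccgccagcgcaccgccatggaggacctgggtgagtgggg
It holds 2 GC boxes, with a GC content of 68.3%. Like both Nr3c1 windows it has no AGAACA or TATAAA on either strand, and so no full receptor element. RefSeq windows were matched for 6 members, Nr3c1, Tgfb1i1, Esr1, Srd5a1, Ncoa1 and Ncor1, and Hsd11b2 had none. Of these windows only that of Ncoa1 held AGAACA on either strand, at 2 places, and none held the full element or TATAAA. Lack of the half-site was thus not particular to the genes that fell.

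The p160 coactivators and the corepressor had no probe set past the threshold. Ncoa1, which recruits histone acetyltransferases to receptors, had signals of 1849.7 to 3440.3 in NARA and 1962 to 2877 in vehicle at 48 h for its brightest probe set, and 2379 to 2428 in NARA and 1618 to 2646 in vehicle at 4 h. The log2 change was 0.07 (95% interval -0.44 to 0.58) at 48 h and 0.27 (95% interval -0.31 to 0.84) at 4 h. A second probe set had 0.11 (95% interval -0.19 to 0.41) at 48 h and -0.05 at 4 h. Probe set 3 of Ncoa1, at 20.5 to 235 over the 13 arrays, and Ncoa2, its close relative, at 22.9 to 130.1, were below the minimum and not tested.

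Ncor1, the corepressor that holds histone deacetylase 3 at unliganded receptors, had 3 probe sets. The brightest gave 3647 to 4128 in NARA and 3495 to 4934 in vehicle at 48 h. At 4 h it gave 3702 to 3745 in NARA and 3870 to 4432 in vehicle. Its groups did not overlap at 4 h, as was so for 14.3% of all probe sets. Its log2 change was -0.11 (95% interval -0.37 to 0.15) at 48 h and -0.12 (95% interval -0.42 to 0.18) at 4 h. A second probe set had -0.45 (SE 0.27, adjusted p = 0.470 in limma) at 48 h and 0.26 at 4 h, neither of which passed. Probe set 3 overlapped between NARA and vehicle at both times, at 767 to 1237 in NARA and 1002 to 1150.2 in vehicle at 48 h.

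**Figure D2:**
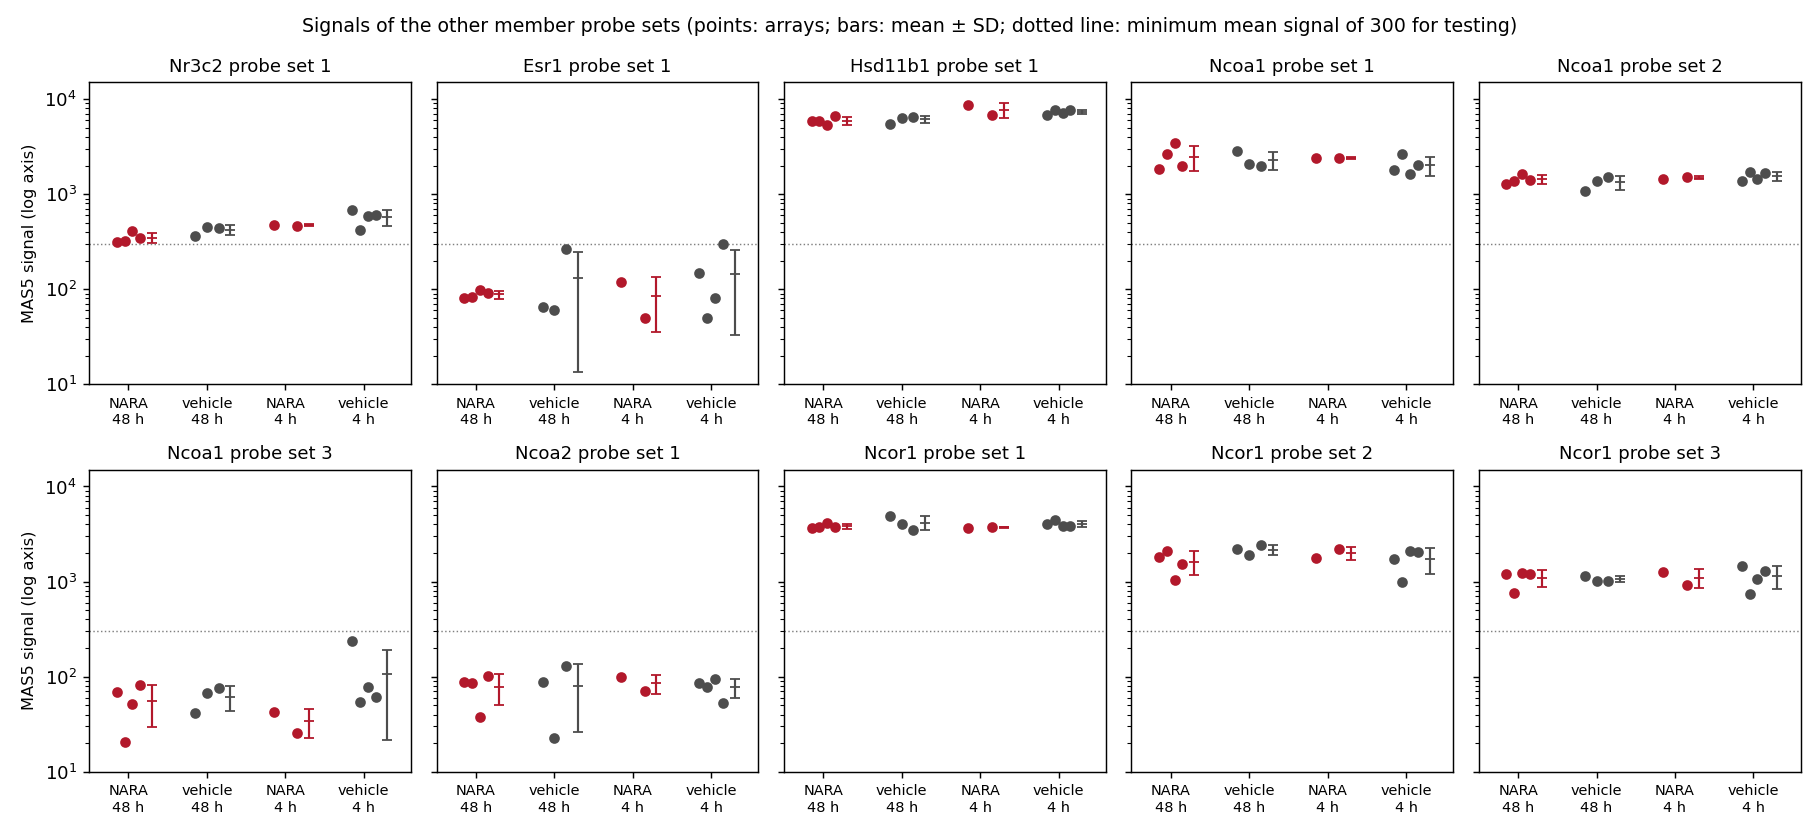
MAS5 signal (vertical axis, log scale) of the 10 member probe sets that did not pass, by group, with arrays as points and mean ± SD as bars. The dotted line is the minimum mean signal of 300, and Esr1, Ncoa2 and Ncoa1 probe set 3 average below it, at 115, 79.4 and 69.5.

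**Figure D3:**
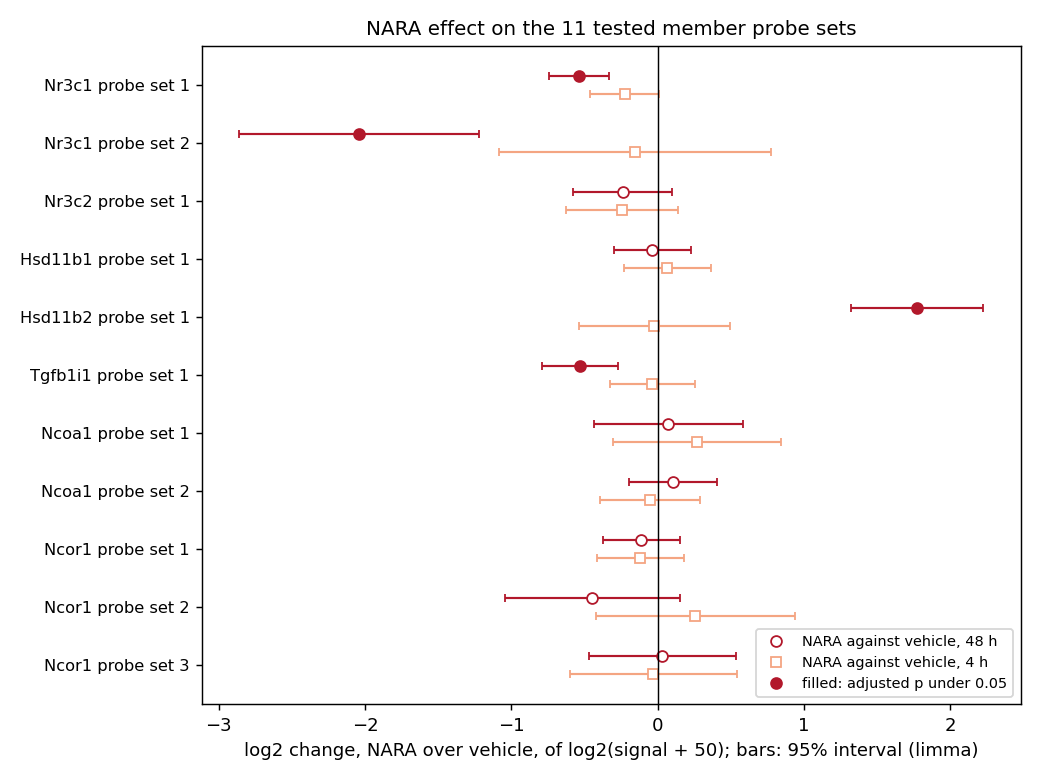
Log2 change, NARA over vehicle, with the 95% interval from limma (horizontal axis) for the 11 tested member probe sets at 48 h (circles) and 4 h (squares). Filled symbols passed at an adjusted p under 0.05: Hsd11b2 at 1.77, the Nr3c1 probe sets at -0.54 and -2.04 and Tgfb1i1 at -0.53, all at 48 h. The Nr3c1 probe set at -2.04 entered the test only through the groups where it was high.

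At 4 h, none of the 11 member probe sets passed in limma and 0 had an unadjusted p under 0.05, beside 992 of 20904 probe sets (4.75%) with such a p. The smallest p among the members was that of the brighter Nr3c1 probe set, at 0.0554. The median log2 change was -0.04 over the 11 and 0.01 over all probe sets. NARA at 4 h rests on 2 arrays.

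Whether the NARA effect differed between 48 h and 4 h was tested directly. The difference of log2 changes, 48 h minus 4 h, was 1.80 for Hsd11b2 (SE 0.31, 95% interval 1.11 to 2.48, adjusted p = 0.0660 in limma), which did not pass but did in 5 of 24 alternative settings. It was -0.31 (SE 0.14, adjusted p = 0.551) and -1.88 (SE 0.56, adjusted p = 0.348) for the brighter and dimmer Nr3c1 probe sets and -0.49 (SE 0.18, adjusted p = 0.449) for Tgfb1i1. Of all probe sets, 0.124% passed and 9% had an unadjusted p under 0.05. Of the 11 members, 4 had such a p, among them the dimmer Nr3c1 probe set from which nothing is read, and 0 passed. A difference between the times is thus not shown for any member.

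Over time within the NARA arrays, Hsd11b2 was higher at 48 h than at 4 h, with a log2 change of 1.84 (adjusted p = 0.00476 in limma, SE 0.23). It was the 1 member past the threshold, beside 0.785% of all probe sets (0.488% higher). The groups of 6 member probe sets, among them the dimmer Nr3c1 probe set, did not overlap, beside 21% of all. This comparison uses the same NARA 48 h arrays as the one against vehicle. With only the NARA groups in the fit the call was lost (adjusted p = 0.112). The actin 3'/5' signal ratio, a sign of RNA quality, also differed with time. It was 2.97 to 3.38 in NARA at 48 h against 2.42 to 2.66 in NARA at 4 h. The GAPDH 3'/5' ratio, another such sign, overlapped between the times. It was 1.06 to 1.30 in NARA at 48 h against 1.07 to 1.10 in NARA at 4 h. In vehicle the GAPDH ratio was 1.13 to 1.36 at 48 h against 1.11 to 1.17 at 4 h. The summed smooth muscle markers in NARA were at 10877 to 15316 against 18017 to 26308. Vehicle shifted the same way, with an actin ratio of 3.02 to 3.34 at 48 h against 2.52 to 2.81 at 4 h. Its smooth muscle sums were 15403 to 17909 against 18174 to 26080. Single smooth muscle markers went both ways between the times. In NARA the means of Tagln, Acta2 and Cnn1 were lower at 48 h, at 5579, 4019 and 330 against 12645, 6418 and 463. Those of Myh11, Lmod1 and Smtn were higher in NARA at 48 h, at 461, 653 and 1955 against 357, 554 and 1725. In vehicle Myh11 and Smtn were higher at 48 h, at 655 and 1687 against 504 and 1630, and the other markers were lower. Hsd11b2 in vehicle had a log2 change over time of 0.04 (SE 0.21, adjusted p = 0.979 in limma). Between NARA and vehicle at 48 h the actin ratio overlapped, at 2.97 to 3.38 in NARA and 3.02 to 3.34 in vehicle. The part of these shifts in the change over time within NARA was not tested. Within NARA the log2 changes over time were -0.32 and -1.63 for the Nr3c1 probe sets (adjusted p = 0.249 and 0.129) and -0.36 for Tgfb1i1 (adjusted p = 0.319). In vehicle, 0 of 11 members and 0% of all probe sets passed in limma, while 2 members and 1536 of all probe sets (7.35%) had an unadjusted p under 0.05. The 2 members were Nr3c2, with a log2 change of -0.40 (adjusted p = 0.639 in limma), and Hsd11b1, with -0.27 (adjusted p = 0.669 in limma). The groups of Hsd11b1 did not overlap there, as was so for 8.9% of all probe sets.

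Of the wider receptor family, 31 other nuclear receptor genes were tested by their brightest probe set, and at 48 h 0 rose and 1 fell, beside 1.71% of all 11286 genes that rose and 1.5% that fell. The 1 was Nr1d2, a circadian repressor related to Rev-erb alpha, at 2098 ± 86.9 (SD, n = 4) in NARA, against 2868.5 ± 199.97 (SD, n = 3) in vehicle, for a log2 change of -0.44 (SE 0.10, adjusted p = 0.0320 in limma). Rxra, the shared partner of many nuclear receptors, was at 1.01 (SE 0.32, adjusted p = 0.132), Rorb at -0.79 (adjusted p = 0.0846) and Esrrb at 0.40 (adjusted p = 0.279), none past the threshold. Rxra was dim, with a mean of 484 in NARA and 204 in vehicle at 48 h, and 360 in NARA and 295 in vehicle at 4 h. Both vehicle means lay below the signal minimum, so Rxra entered the test only through the NARA groups, where it was higher. The list's median was -0.0077 and that of all genes -0.0051.

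Of 24 other steroid-converting enzymes tested, 0 rose and 1 fell at 48 h, beside the same 1.71% and 1.5% of all genes, from which a single gene does not stand out. Hsd3b7, an enzyme of bile acid synthesis, was at 3203 ± 590.0 (SD, n = 4) in NARA, against 4987 ± 425 (SD, n = 3) in vehicle, for a log2 change of -0.65 (SE 0.15, adjusted p = 0.0423 in limma). Hsd17b11 was at -0.37 (adjusted p = 0.161), Hsd17b4 at -0.21 (adjusted p = 0.432) and Hsd17b3, which makes testosterone in the testis, at 0.62 (adjusted p = 0.389), none past the threshold. H6pd, which supplies Hsd11b1 with its cofactor, was at 0.06 (SE 0.37), and was picked for that role after its values had been seen. The list's median was -0.03.

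Of 54 other coregulators tested, 0 rose and 1 fell at 48 h, which is also near the 1.71% of all genes that rose and 1.5% that fell. Cited2, which binds the coactivators Ep300 and Crebbp, was at 6338 ± 461 (SD, n = 4) in NARA, against 9882 ± 272 (SD, n = 3) in vehicle, for a log2 change of -0.64 (SE 0.09, adjusted p = 0.00229 in limma). Kat2b, an acetyltransferase, was at 0.34 (adjusted p = 0.0954), the splicing factor Sfpq at -0.35 (adjusted p = 0.122) and the demethylase Kdm3a at -0.38 (adjusted p = 0.131), none past the threshold. The list's median was -0.05. At 4 h, 0 of the 31 receptors, 24 enzymes and 54 coregulators passed.

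Among 17 measured genes known to respond to these receptors, 6 rose and 1 fell at 48 h, where 1.71% of all genes rose and 1.5% fell. This list was chosen with earlier results of these data known, so the count is a description and no test of the set. Sgk1, a kinase induced by mineralocorticoids and glucocorticoids, averaged 22154 ± 1242 (SD, n = 4) in NARA, against 12625 ± 529 (SD, n = 3) in vehicle at 48 h, and 18081 ± 1028 (SD, n = 2) in NARA, against 12429 ± 797 (SD, n = 4) in vehicle at 4 h. Glul, the glutamine synthetase gene, averaged 9618 ± 182 in NARA and 5219 ± 786 in vehicle at 48 h (log2 change 0.89, SE 0.11), and 8305 ± 198 in NARA and 5178 ± 47.6 in vehicle at 4 h (0.68, SE 0.12, adjusted p = 0.248 in limma). Tsc22d3, a leucine zipper protein, had log2 changes of 1.02 at 48 h and 0.54 at 4 h, and Fkbp5, a cochaperone that lowers the hormone affinity of these receptors, 1.80 and 0.82. Errfi1 (0.94) and Ddit4 (0.86) also rose at 48 h, and Cdkn1c, a cell cycle inhibitor, fell (-0.95). The adjusted p of these 7 at 48 h lay between 0.000749 and 0.0488 in limma, and 0 of 17 genes passed at 4 h. The list's median was 0.17 at 48 h and 0.10 at 4 h, against -0.0051 and -0.0016 over all genes.

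Of 31 measured LIM and focal adhesion genes around Tgfb1i1, 1 rose and 3 fell at 48 h, where 1.71% of all genes rose and 1.5% fell. This list too was chosen with earlier results of these data known, and its count is a description. Pdlim1, a PDZ and LIM protein of actin filaments, was at 5410.2 ± 500.3 (SD, n = 4) in NARA, against 9181 ± 955 (SD, n = 3) in vehicle, for a log2 change of -0.76 (SE 0.12, adjusted p = 0.00714 in limma). Ajuba, a LIM scaffold protein, was at -0.58 (adjusted p = 0.0414), Csrp2, a LIM protein of smooth muscle, at -0.52 (adjusted p = 0.0425) and Tgfbr1, a TGF-beta receptor, at 0.43 (adjusted p = 0.0476). Paxillin (Pxn) and leupaxin (Lpxn), the nearest relatives of Tgfb1i1, were at 0.27 (SE 0.11, adjusted p = 0.247) and 0.23 (SE 0.26, adjusted p = 0.717), and both were picked as its paralogs after their values had been seen. The list's median was -0.25, against -0.0051 over all genes, and 22 of the 31 log2 changes were negative. The summed smooth muscle markers were lower too, at 10877 to 15316 in NARA against 15403 to 17909 in vehicle. Single markers went both ways, as given above for Tgfb1i1. The part of these markers in the list's values was not tested. At 4 h the median was -0.04 and 0 passed.

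**Figure D4:**
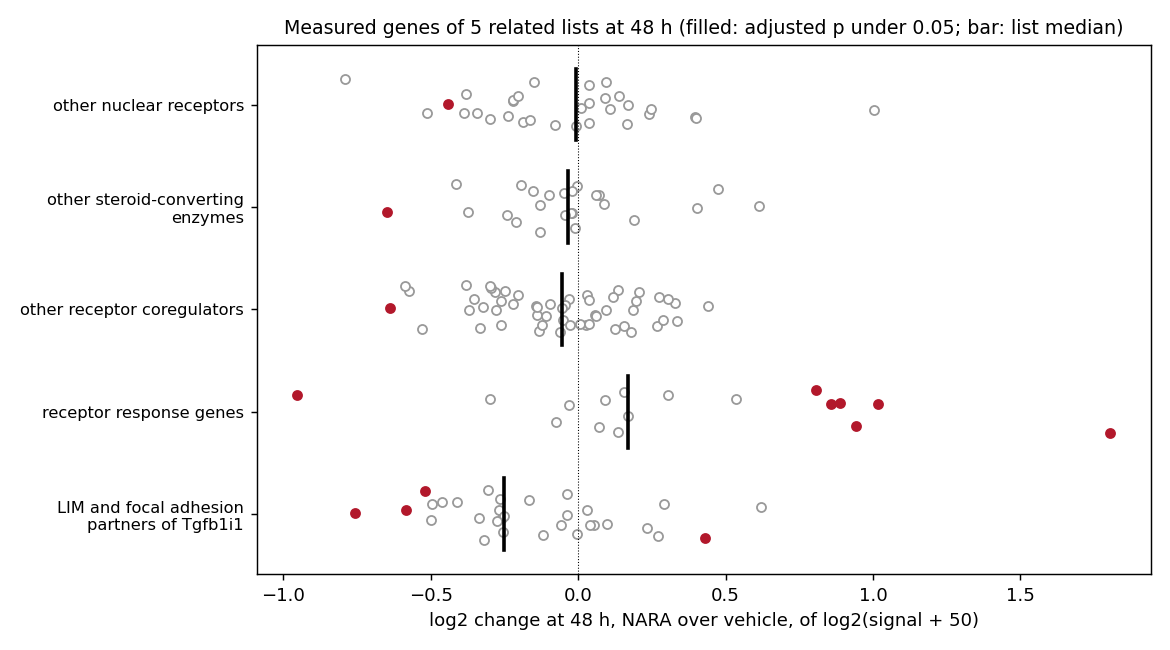
Log2 change at 48 h, NARA over vehicle (horizontal axis), of each measured gene of the 5 related lists, by its brightest probe set. Filled points passed at an adjusted p under 0.05 and bars are list medians, at -0.0077 for other nuclear receptors, -0.03 for enzymes, -0.05 for coregulators, 0.17 for response genes and -0.25 for the LIM and focal adhesion list.

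As a description, the genes whose log2 signals most resembled each called member over the 13 arrays were found among 11285 genes by Pearson's r. The arrays share the same 4 groups and scaling, so r reflects group differences as well as single arrays. For the brighter Nr3c1 probe set these were Egr2 (r = 0.977), an immediate early transcription factor, Gjb2 (0.9749), a gap junction protein, and Cnrip1 (0.963), at log2 changes of -1.80, -1.74 and -0.51 at 48 h. For Hsd11b2 they were Arl15 (0.955), Tgfb2 (0.949) and Srpx (0.949), at 1.08, 1.33 and 1.69. For Tgfb1i1 they were Nudt21 (0.950), Map1lc3a (0.936), a protein of autophagosomes, and Depdc7 (0.924), at -0.35, -0.42 and -0.55.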

How the data were processed

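RNA of rat levator ani satellite cells was measured on Affymetrix arrays, 1 per sample, 16 in all. The deposited intensity values are MAS5 signals, per the submitters' processing notes, which the authors scaled to a trimmed mean of 1500, per the series' design text. The same text names the 3 arrays that were left out here too. The small number of arrays limits precision. Of 31099 probe sets, 57 controls were set aside, and of the other 31042 the platform annotation gave 20826 exactly 1 symbol, 436 several and 9780 none. The gene identifiers of all 14 member probe sets were found in RefSeq with the same symbol.

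Signals were taken as log2(signal + 50), which understates changes of dim probe sets, and the test took probe sets averaging 300 or more on the 13 arrays. Group means were fitted with limma 3.58.1 (lmFit and eBayes, R 4.3.3) over the whole table, with 1 spread for all 4 groups and 9 residual degrees of freedom. Two-sided p-values were adjusted by Benjamini-Hochberg over the 20904 probe sets tested, for 5 contrasts. Statistics were tested on simulated data with known changes. Promoter windows came from RefSeq (GRCr8).

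Members and lists were chosen with earlier results of these data known. All members are named. Of each list, called genes and then those of smallest p at 48 h are named, up to 4, by the brightest probe set of a gene, and the 3 genes of highest r per called member. Where exceptions are named, the text says so; Errfi1, Ddit4 and Cdkn1c complete a count. Alternatives were other array sets, a fit of the compared groups alone, offsets of 1 and 200, a signal minimum of 1000 or none, median scaling or quantile normalization, a robust and trended prior, replicate number as block, and each array omitted in turn.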

Additional observations from a re-analysis of the deposited data

Results flagged for a closer look

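Among 28 sets of 4 arrays examined for a single array far from the others, 1 was found, where chance gives about 1 in 20: Ncor1 probe set 3 had 767 in NARA 48 h replicate 2, against 1189 to 1237 in the other NARA 48 h arrays.

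The 2 left-out NARA 4 h arrays enter the report's comparisons only under the alternatives with all 16 arrays. On them, these member signals lay above all 7 vehicle arrays. In replicate 1 these were Nr3c2 at 1146 (highest vehicle 687), Hsd11b2 at 1698 (1453), the second Ncoa1 probe set at 2098 (1699), and Ncor1 probe sets 2 and 3 at 3484 (2401) and 2633 (1460.1). In replicate 4 they were the brighter Nr3c1 probe set at 8671 (8083) and Ncor1 probe sets 2 and 3 at 3125 (2401) and 2500.5 (1460.1), and the untested Ncoa2 at 131.2 (130.1). Others lay below all 7 vehicle arrays. Tgfb1i1 was at 1833 and 1715 in replicates 1 and 4 (lowest vehicle 16363), and the dimmer Nr3c1 probe set at 323 and 18.6 (416). In replicate 1 the brighter Nr3c1 probe set was at 5596 (7101), Hsd11b1 at 2588 (5497) and Ncor1 probe set 1 at 3113 (3495).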

How the results depend on the processing

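The 4 member probe sets past the threshold at 48 h include the dimmer Nr3c1 probe set, which entered the test only through the groups where it was high. The 4 became 1 with all 16 arrays and 1 with only the 48 h groups, Hsd11b2 in both cases. They became 2 with the replicate number as a block. Without single arrays the count was 2 to 4, with 2 without vehicle 48 h replicate 2. Under the block the brighter Nr3c1 probe set was at -0.52 (adjusted p = 0.0528) and Tgfb1i1 at -0.51 (adjusted p = 0.0941). The labels do not say whether the replicate numbers pair the arrays. Deviations from group means of the 16 same-number pairs correlated at -0.04 to 0.04, and 2 of 13 arrays were closest to their own number. These values cannot decide the question, since deviations from means of so few arrays depend on each other within a group.

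For the difference of effects the count was 0 and became 1, Hsd11b2, with vehicle 48 h replicate 1 put back, with array weights over 16 arrays, with a robust and trended prior, with an offset of 200 and with the signal minimum at 1000. The call over time in NARA became 0 with only the groups compared. The cause of these changes was not tested. Some settings hold fewer arrays or probe sets. Those with 16 arrays hold more of both, and they add the left-out NARA 4 h replicates 1 and 4, which stood apart from the other arrays.

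Of the values that changed sign none passed the threshold, with or without the change. At 48 h these were Hsd11b1 (0.0057 and 0.0088) and Ncoa1 probe set 1 (-0.032 and -0.10), without vehicle replicate 4 and without NARA replicate 3 of that time, and, without vehicle replicate 2, Ncoa1 probe set 2 (-0.024) and Ncor1 probe set 1 (0.015, with a leave-one-out range of -0.23 to 0.015). At 4 h, with all 16 arrays, Nr3c2 was at 0.18, Hsd11b1 at -0.39 and Hsd11b2 at 0.21, and there the later-minus-earlier values of Tgfb1i1 were 1.12 for the effect and 1.26 within NARA. Hsd11b2 at 4 h was at 0.027 with array weights, 0.02 without vehicle 4 h replicate 1 and 0.34 without NARA 4 h replicate 3. The other lone-array case, without NARA 4 h replicate 2, put the dimmer Nr3c1 probe set at 0.24 (-0.55 without replicate 3) and Hsd11b1 at -0.11, with the lone NARA array assumed to vary like the other groups. Under the block that Nr3c1 value was 0.0059. Of 27 other changes computed, 67 of 664 values under alternatives had the opposite sign, 0 of them past the threshold. The fit of the compared groups alone was not run for the difference, which needs all 4 groups. Over all probe sets, 586 passed at 48 h, but 1098 under the robust and trended prior, 1069 at the higher minimum, 355 without one, 312 under the block, 217 in the fit of the compared groups alone, 36 on all 16 arrays, and 321 and 310 when vehicle 48 h replicate 2 or 3 was omitted.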
